A study of Mus musculus with 12 samples.

Results

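The genes described here are 10 transcriptional regulators that cells switch on quickly after a stimulus: Fos, Fosb, Fosl1, Fosl2, Jun, Junb, Jund, Egr1, Ier2 and Atf3. They were taken by gene symbol, each matched 1 row, and they make up 10 of the 32774 genes in the table of expression values. RNA was sequenced from whole pieces of adipose vascular anomalies, lesions rich in abnormal vessels within fat, and from normal adipose tissue of C57BL/6 mice. The anomalies gave 8 libraries from 7 animals with the genotype VEC-Cre, SB Transposase and onc3. In VEC-Cre, the promoter of Cdh5, the VE-cadherin gene, expresses the recombinase Cre in endothelial cells. Normal adipose tissue gave 4 libraries from 4 animals with the genotype SB Transposase and onc3 and no VEC-Cre. The genotypes of both groups therefore name onc3, a transposon, and the Sleeping Beauty transposase, an enzyme that can mobilise it. VEC-Cre is the named difference. The genotypes alone do not show in which mice or cells the enzyme was made. Ages are not given in the sources used here. The titles name 5 anomaly animals subQ (M580, M566, F578, M610 and M605) and 2 anomaly animals fat (18f and M278), and all 4 normal animals (F539, M5, M602 and M2) are titled fat. A leg and an arm piece of M566 were averaged into 1 animal.

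Anomaly libraries held 11749969 to 29763059 recovered reads and normal libraries 10337258 to 33980694, except for the anomaly library of M580, which held 953994. In M580 a count of 7 reads stood behind the value of Fosb, 14 behind Fosl1 and 23 behind Atf3. The column of M605 bears a control name in the upper header line, but it is an anomaly in the lower header line and by its labels, and was used as one. The same 9 of the 10 genes passed the test without M580, and also without both M605 and M580. Markers of the fat cell were detected in every library, and their summed level was 1456 to 26615 CPM (counts scaled for library size) in anomalies and 36098 to 91073 CPM in normal adipose tissue. In such bulk samples, fewer cells of a type and less RNA per cell cannot be told apart.

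AP-1 is a dimer of leucine zipper proteins that binds DNA and turns genes on or off. Jun proteins pair with each other or with Fos proteins, while Fos proteins need a Jun partner, and the pairing sets which sites are bound and how strongly. Fos, Fosb, Jun, Junb, Egr1, Ier2 and Atf3 are textbook immediate early genes, whose transcription starts without new protein synthesis after growth factors, cytokines, stretch, calcium or tissue injury. Jund is known as the steadily expressed Jun gene, and Fosl1 and Fosl2 as later and longer lasting members of the Fos family. In fat, several of these genes are induced briefly when precursor cells begin to form adipocytes. In vessels, Egr1 and AP-1 are known to respond to flow and injury.

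Promoters hold the sites of the factors that such signals act on. The last 120 bases before the start site are therefore shown for the members that carry a match to the core of a cAMP response element or to the AP-1-like site known in Jun. They are RefSeq sequences on GRCm38.p6, which holds entries for 7 of the 10 members and none for Fosl1, Egr1 or Ier2. Each runs 5′ to 3′ on the strand of its gene, from chr12:85473770-85473889 (plus strand) for Fos, chr7:19310046-19310165 (minus) for Fosb, chr4:95052223-95052342 (minus) for Jun, chr8:84978749-84978868 (minus) for Junb and chr1:191183334-191183453 (minus) for Atf3. Capitals mark TGACG or its reverse complement, TGACATCA and TATAAA.
Fos: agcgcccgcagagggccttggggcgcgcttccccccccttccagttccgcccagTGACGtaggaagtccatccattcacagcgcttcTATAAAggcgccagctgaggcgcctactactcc
Fosb: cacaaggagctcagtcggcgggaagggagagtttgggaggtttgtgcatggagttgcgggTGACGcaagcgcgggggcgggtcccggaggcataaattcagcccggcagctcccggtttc
Jun: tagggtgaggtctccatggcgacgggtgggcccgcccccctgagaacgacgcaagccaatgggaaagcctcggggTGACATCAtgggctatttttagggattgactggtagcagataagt
Junb: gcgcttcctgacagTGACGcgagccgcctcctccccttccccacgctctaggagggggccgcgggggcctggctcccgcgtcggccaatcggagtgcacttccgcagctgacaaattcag
Atf3: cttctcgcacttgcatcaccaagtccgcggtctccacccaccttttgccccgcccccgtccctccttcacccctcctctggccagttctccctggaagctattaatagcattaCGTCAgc
Motifs were searched on both strands of the 250 bases before each start, and sites farther upstream were not searched. TGACG, the core shared by cAMP response elements, lay 66 to 62 bases before the start of Fos and a second time at 129 to 125, 60 to 56 bases before Fosb, 106 to 102 before Junb and, on the opposite strand, 7 to 3 before Atf3. It occurs in 17.8% of 32851 RefSeq promoters, so a match is a description and not a site. TGACATCA, an 8-base AP-1-like sequence, lay 45 to 38 bases before Jun and occurs in 2.93% of promoters, and TTACCTCA lay 164 to 157 bases before Jun and occurs in 0.728%. The TATA sequence TATAAA lay 33 to 28 bases before Fos and occurs in 12.4%. CCAAT was in Jun and Junb and occurs in 33.8%. The full cAMP response element TGACGTCA, which contains TGACG (1.55% of promoters), the AP-1 sites TGACTCA or TGAGTCA (4.46%) and the CArG box (1.47%) had no match in the windows of the 7 members. For Atf3 the RefSeq start lies 34706 bases inside the gene start of the GENCODE annotation, and for Fosl2 671 bases inside it. For Jund the RefSeq start lies 1210 bases before the GENCODE start. TGACG was added to the search after the sequences were seen.

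The comparison asks which genes differ between the anomalies and normal adipose tissue of other animals. Lesion and genotype cannot be told apart in it, since only the anomaly animals carried VEC-Cre. Titled site is partly confounded with group, since all normal animals are titled fat and most anomaly animals subQ. Of the 10 genes, 9 were higher in the anomalies and 0 lower at an adjusted p under 0.05, and the one that did not pass, Fosb, also had the higher mean in anomalies. All 10 passed the filter on low values. Fold changes ran from 1.40 for Jund to 5.20 for Junb. Across all 12955 genes tested, 15.3% were higher and 23.2% lower, and the median log2 fold change of all genes was -0.10, against 0.48 to 2.38 for the 10 members. With scaling to library totals in place of the deposited scaling, the median of all genes moved to 0.33, a shift of 0.43, and all 10 members were higher, as were 35.3% of all genes. Of the genes called, 39.8% were higher as deposited and 74.4% with library totals. For 3 members, Junb, Jund and Ier2, every anomaly animal lay above every normal animal, a pattern seen in 8.3% of all genes tested.

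**Figure D1:**
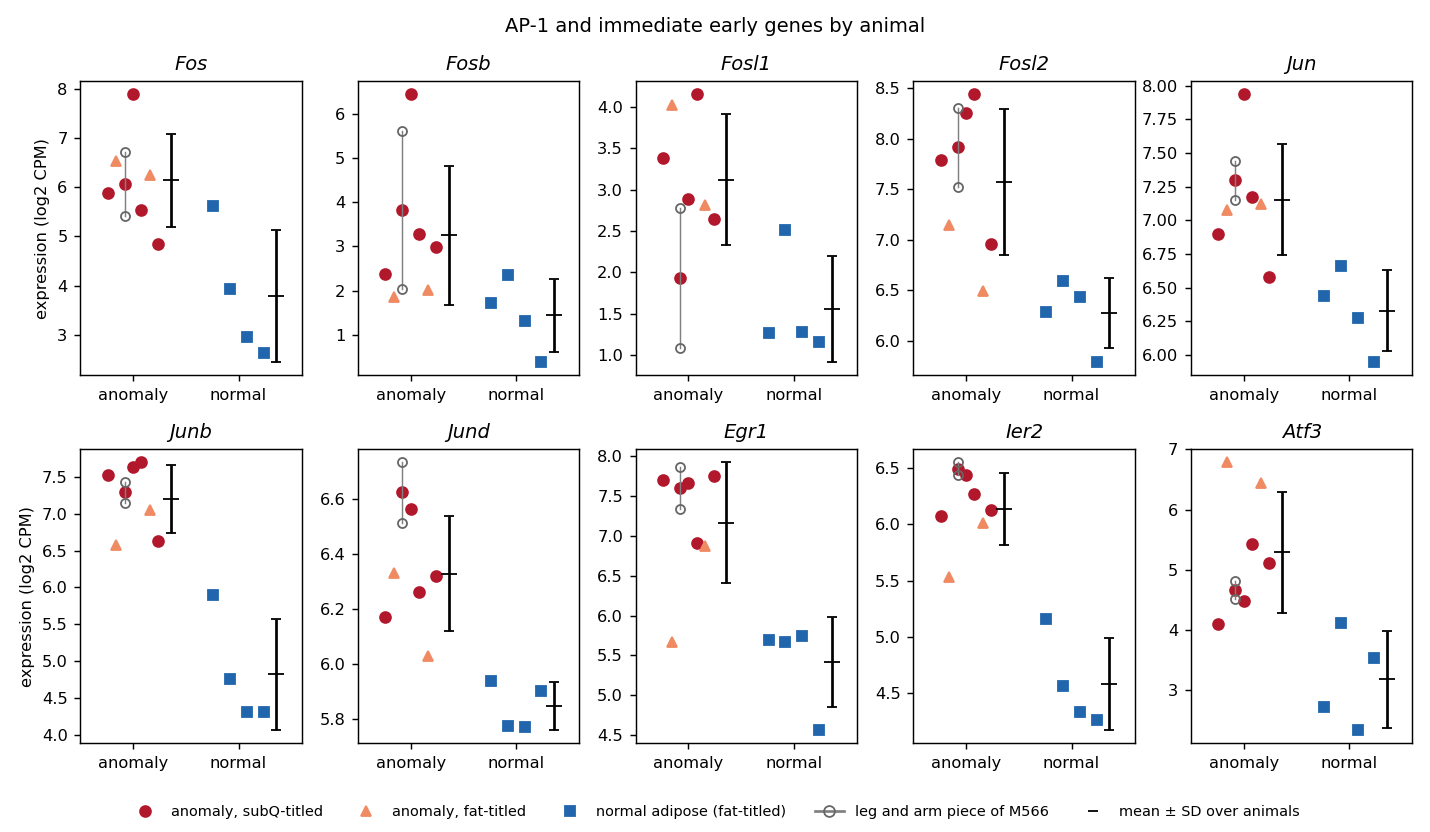
Expression of each gene in log2 CPM (vertical axis) by animal, with anomalies on the left of each panel and normal adipose tissue on the right. Circles are subQ-titled anomalies, triangles fat-titled anomalies and squares normal adipose tissue, open points are the separate pieces of M566, and bars are the mean and SD of 7 anomaly and 4 normal animals. Junb, Jund and Ier2 are the panels in which the groups do not overlap.

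Among the Fos family, Fos (chromosome 12, 85473890 to 85477273, GRCm38), which encodes the classic partner of Jun, had the largest change and the widest spread among normal animals. In the 7 anomaly animals Fos ran from 4.84 log2 CPM in M605 over a median of 6.06 to 7.89 in F578, against 5.62 in F539, 3.93 in M5, 2.96 in M602 and 2.64 in M2 among normal animals. Means were 6.14 ± 0.94 in anomalies and 3.79 ± 1.34 in normal adipose tissue (SD, n = 7 and 4 animals). The groups overlapped, because normal animal F539 lay above anomaly animals M610 and M605, and 5 of 7 anomalies lay above all normals. Fos rose 5.11-fold, a log2 fold change of 2.35 ± 0.62 (SE) with an adjusted p of 0.0128. The call was lost without normal animal M602 (log2 fold change 2.08, adjusted p = 0.0517), and without F539 the change was 2.96 (adjusted p = 0.00340).

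Fosb (chromosome 7, 19302696 to 19310051), a close relative of Fos whose protein also pairs with Jun, had the lowest level of the 10 per length of transcript. Its anomaly values ran from 1.85 log2 CPM in 18f over a median of 2.98 to 6.43 in F578, against 1.72 in F539, 2.36 in M5, 1.31 in M602 and 0.38 in M2. Anomalies 18f and M278 lay below normal animal M5, the other 5 lay above all normals, and F578 stood far above the rest. Fosb averaged 3.25 ± 1.57 log2 CPM in anomalies and 1.44 ± 0.83 in normal adipose tissue (SD, n = 7 and 4). The log2 fold change of 1.81 ± 0.78 did not pass the test (adjusted p = 0.0881). It passed with library totals (2.23, adjusted p = 0.0388).

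Fosl1 and Fosl2 encode the Fos-related proteins Fra-1 and Fra-2, which lack the strong activation domain of Fos. Fosl1 (chromosome 19, 5447547 to 5455946) ran from 1.94 log2 CPM in M566 over a median of 2.89 to 4.15 in M610 among anomalies, against 1.27 in F539, 2.51 in M5, 1.28 in M602 and 1.17 in M2. In 6 of 7 anomaly animals Fosl1 lay above all normals, and M566 lay below normal animal M5. It rose 2.96-fold (log2 1.56 ± 0.44, adjusted p = 0.0169). The call was lost without M602 (adjusted p = 0.0572), without M2 (0.0571) and with the leg piece alone for M566 (0.0568). Of the 2033 exonic bases of Fosl1, 1163 are shared on the opposite strand with Ccdc85b, and the kit does not mark strand, so reads there cannot be assigned to either gene.

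Fosl2 (chromosome 5, 32135801 to 32157842) is known in fat and bone for its role in cell differentiation. It ran from 6.49 log2 CPM in M278 over a median of 7.79 to 8.44 in M610 among anomalies, against 6.29 in F539, 6.59 in M5, 6.43 in M602 and 5.79 in M2. M278, titled fat, was the 1 anomaly inside the normal range. Fosl2 rose 2.46-fold (log2 1.30 ± 0.36, adjusted p = 0.0165), and the call was lost without M2 (1.14, adjusted p = 0.0605).

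The Jun family supplies the partner that every Fos protein needs. Junb (chromosome 8, 84974484 to 84978718), whose protein can both replace and restrain Jun, showed the largest fold change of the 10 genes, close to that of Fos and with a smaller error. In anomalies it ran from 6.57 log2 CPM in 18f over a median of 7.29 to 7.70 in M610, against 5.90 in F539, 4.76 in M5, 4.31 in M602 and 4.31 in M2. The groups did not overlap. Junb averaged 7.20 ± 0.46 in anomalies and 4.82 ± 0.75 in normal adipose tissue (SD, n = 7 and 4), a 5.20-fold rise (log2 2.38 ± 0.33, adjusted p = 0.00108). It kept its call in all 28 alternatives tried, with adjusted p up to 0.0494. Junb shares 173 exonic bases with Prdx2 on the opposite strand.

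Jun (chromosome 4, 95049034 to 95052222), the founding member of the family, rose by less. Jun ran from 6.58 log2 CPM in M605 over a median of 7.12 to 7.93 in F578 among anomalies, against 6.44 in F539, 6.66 in M5, 6.27 in M602 and 5.95 in M2. M605 was the 1 anomaly that lay below a normal animal. The rise was 1.77-fold (log2 0.82 ± 0.23, adjusted p = 0.0164), and it was not called without M602 (adjusted p = 0.0518) or without M2 (0.0630). Jun shares 232 exonic bases with the antisense gene Junos.

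Jund (chromosome 8, 70698949 to 70700616), whose product is the Jun protein of resting cells, had the smallest and most even change. It ran from 6.03 log2 CPM in M278 over a median of 6.32 to 6.62 in M566 among anomalies, against 5.94 in F539, 5.77 in M5, 5.77 in M602 and 5.90 in M2. The SD was 0.21 in anomalies and 0.09 in normal adipose tissue, and the groups did not overlap. Jund was 1.40-fold higher (log2 0.48 ± 0.13, adjusted p = 0.0138), with an adjusted p of 0.0508 without M602. Of the 1668 exonic bases of Jund, 877 are shared with the antisense gene Gm11175, and reads there cannot be assigned to either gene.

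Egr1 and Ier2 are immediate early genes outside the AP-1 family. Egr1 (chromosome 18, 34859823 to 34864984) encodes a zinc finger factor induced by growth factors and by changes in flow over endothelium. It ran from 5.67 log2 CPM in 18f over a median of 7.60 to 7.74 in M605 among anomalies, against 5.70 in F539, 5.67 in M5, 5.74 in M602 and 4.57 in M2. Anomaly 18f lay within the normal range and the other 6 anomalies above it. Egr1 rose 3.35-fold (log2 1.75 ± 0.40, adjusted p = 0.00723). Ier2 (chromosome 8, 84661331 to 84662852), a nuclear protein gene induced by growth factors, ran from 5.54 log2 CPM in 18f over a median of 6.13 to 6.50 in M566, against 5.16 in F539, 4.56 in M5, 4.33 in M602 and 4.26 in M2. The Ier2 groups did not overlap, and it had the smallest adjusted p of the 10, at 0.000996 for a 2.95-fold rise (log2 1.56 ± 0.21). Leaving out any 1 animal kept both calls, with adjusted p up to 0.0291 for Egr1 and 0.00633 for Ier2.

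Atf3 (chromosome 1, 191170296 to 191218039) encodes a stress-induced leucine zipper protein that pairs with Jun proteins and often acts as a repressor. In anomalies it ran from 4.09 log2 CPM in M580 over a median of 5.11 to 6.78 in 18f, against 2.72 in F539, 4.12 in M5, 2.34 in M602 and 3.54 in M2. Anomaly M580, the shallow library, lay just below normal animal M5, and the other 6 anomalies lay above all normals. Atf3 rose 4.31-fold (log2 2.11 ± 0.54, adjusted p = 0.0112), and the call was kept in all 28 alternatives, with adjusted p up to 0.0469.

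**Figure D2:**
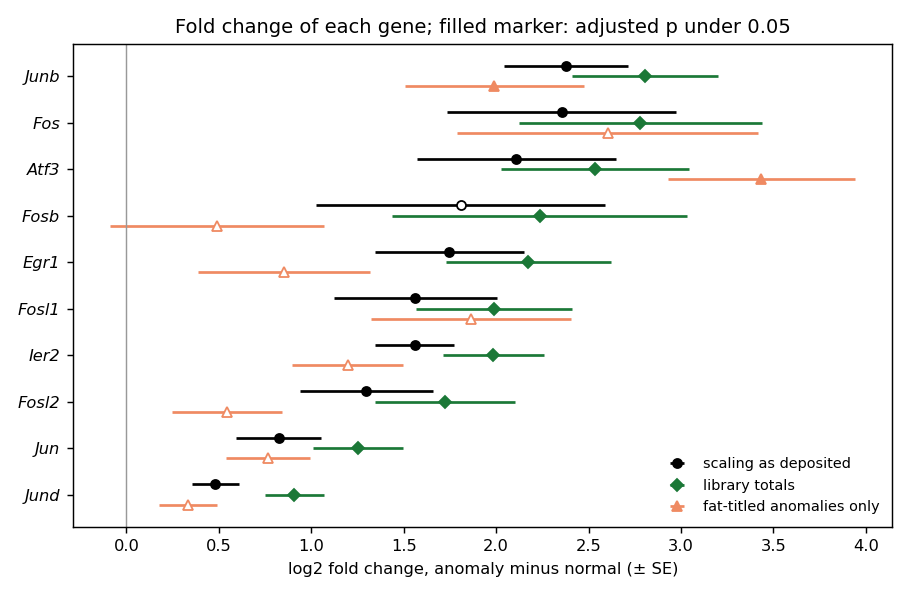
Log2 fold change of each gene, anomaly minus normal, with bars of 1 SE (horizontal axis) under 3 settings: scaling as deposited, scaling to library totals, and fat-titled anomalies alone against normal adipose tissue. Filled markers passed an adjusted p under 0.05. Values lie above 0 for every gene and setting, 10 genes passed with library totals, and Junb and Atf3 passed with fat-titled anomalies alone, where 6.58% of all genes were higher.

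Levels of different genes were set side by side as mean log2 CPM per kilobase of exonic length, printed here on the linear scale. In anomalies the order was Junb (63.9 CPM per kilobase), Jund (48.2), Ier2 (46.3), Jun (44.7), Egr1 (32.0), Fos (30.0), Fosl2 (19.6), Atf3 (18.1), Fosl1 (4.28) and Fosb (1.53). In normal adipose tissue it was Jund (34.5), Jun (25.2), Ier2 (15.7), Junb (12.3), Egr1 (9.53), Fosl2 (7.99), Fos (5.87), Atf3 (4.20), Fosl1 (1.45) and Fosb (0.436). Jund, the steadily expressed Jun gene, headed the order in normal adipose tissue and stood second to Junb in anomalies. Most neighbours in these orders differed by less than the larger of their SDs between animals. The exceptions were Atf3 above Fosl1 in anomalies, and Jund above Jun, Jun above Ier2, Atf3 above Fosl1 and Fosl1 above Fosb in normal adipose tissue. The lengths include bases shared with genes on the opposite strand, such as 1163 of the 2033 bases of Fosl1 and 877 of the 1668 bases of Jund. The places of Fosl1 and Jund in these orders are therefore uncertain.

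Because the anomalies carry 2 site words in their titles while all normals are titled fat, the anomalies were also fitted as 2 groups against normal adipose tissue. In the 5 subQ-titled animals all 10 genes were higher, with adjusted p from 0.000522 for Ier2 to 0.0343 for Fosl1, against 16.1% of all genes higher in that comparison. In the 2 fat-titled animals Junb (log2 1.99 ± 0.45, adjusted p = 0.0243), Ier2 (1.20 ± 0.26, 0.0213) and Atf3 (3.44 ± 0.49, 0.00857) passed, against 6.76% of all genes higher. In a fit of the 2 fat-titled animals and the normals alone, Ier2 did not pass (adjusted p = 0.0533). The log2 fold changes of the other 7 in fat-titled animals were 2.60 for Fos, 1.86 for Fosl1, 0.85 for Egr1, 0.77 for Jun, 0.54 for Fosl2, 0.49 for Fosb and 0.33 for Jund. The difference between subQ-titled and fat-titled anomalies did not pass for any member, and it passed for 0.0386% of all genes tested. Its largest values were in Atf3 and Fosb. Atf3 averaged 4.76 log2 CPM in subQ-titled and 6.61 in fat-titled anomalies, a difference of -1.86 ± 0.47 (adjusted p = 0.195). Fosb ran the other way, at 3.78 log2 CPM in subQ-titled and 1.93 in fat-titled anomalies (1.85 ± 0.93, adjusted p = 0.372). Egr1 was at 7.52 log2 CPM in subQ-titled and 6.27 in fat-titled anomalies (1.25 ± 0.40, adjusted p = 0.245). Fosl2 was at 7.87 log2 CPM in subQ-titled and 6.82 in fat-titled anomalies (1.05 ± 0.38, adjusted p = 0.274).

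The 10 genes were also compared in pairs within the anomalies, animal by animal. Over the 7 anomaly animals, 30 of the 45 pairs of members had a positive Pearson r, with a median of 0.30. In exact permutation tests over 5040 orders, two-sided, 4 pairs had a p under 0.05 and 0 had an adjusted p under 0.05, the smallest being 0.214. That smallest value belonged to Egr1 and Atf3, which ran in opposite directions (r = -0.88, exact p = 0.00476, Spearman rho = -0.79, exact p = 0.0480). Without 18f and M278, the 2 animals farthest from the median of Egr1 and also the 2 titled fat, r was -0.68 over 5 animals. Fos and Jun had r = 0.90 (exact permutation p = 0.0163, rho = 0.57, exact p = 0.200), which rests on F578 and M605, since without them r was -0.05. Fosl2 and Junb had r = 0.80 (exact permutation p = 0.0391, rho = 0.82, exact p = 0.0341), and 0.93 without M278 and M605. Fosb and Ier2 had the highest rank correlation of the 45 pairs (rho = 0.96, exact permutation p = 0.00278, adjusted 0.125), with r = 0.74 (exact p = 0.0748) and 0.95 without F578 and 18f. For Egr1 and Ier2, r = 0.80 (exact permutation p = 0.0395) gave way to -0.09 without the 2 farthest animals.

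**Figure D3:**
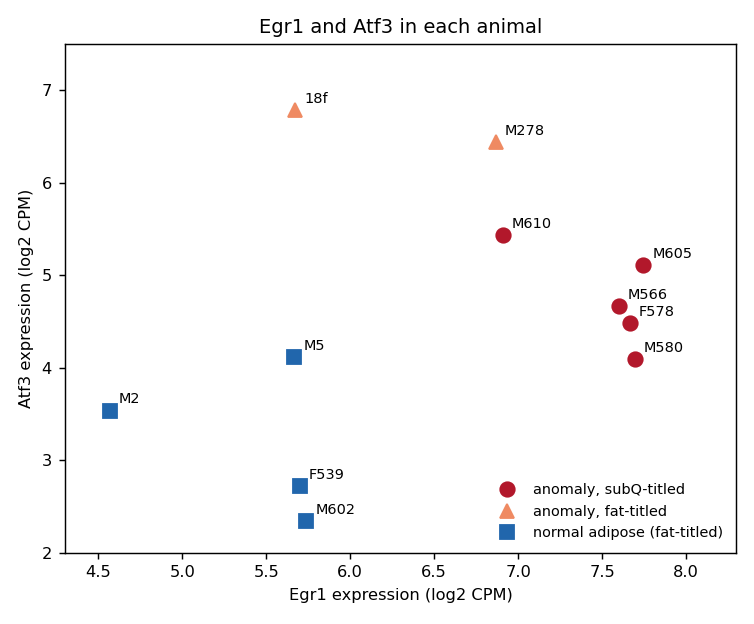
Egr1 (horizontal axis) against Atf3 (vertical axis), both in log2 CPM, with 1 point per animal. Circles are subQ-titled anomalies, triangles fat-titled anomalies and squares normal adipose tissue. The fat-titled anomalies 18f and M278 have the highest Atf3, at 6.78 and 6.44, and 18f has the Egr1 level of normal tissue, while the subQ-titled anomalies have higher Egr1 and lower Atf3.

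The leg and arm pieces titled M566 differed in several of these genes. The arm library also stood apart in Xist, at 5.97 log2 CPM beside 4.92 for the Y-linked gene Ddx3y, against 3.30 and 5.35 in the leg, and the part of this in the differences was not tested. Fosb stood at 5.61 log2 CPM in the arm and 2.04 in the leg, from 796 and 60 reads. Fosl1 differed by 1.69 (arm minus leg) and Fos by 1.29. Fosl2 ran the other way, with -0.78. The other 6 members differed by -0.29 to 0.52, and Ier2, at 0.11, was the closest.

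The genes whose values ran closest to Fos were read from Pearson r over the 11 animals after the group means were removed, as a description over 12955 genes. They were Kdm6a (r = 0.94), which encodes a histone demethylase, the channel gene Panx1 (0.89), Xist (0.88), the noncoding RNA of the inactive X chromosome, the zinc finger gene Plagl2 (0.85) and the keratin gene Krt19 (0.85). Of these, Panx1 rose in anomalies (log2 2.14, adjusted p = 0.000483), and so did Plagl2 (0.63, adjusted p = 0.0115). Fos, Kdm6a and Xist were each highest in 18f and F578 among anomaly animals and in F539 among normal animals. The part of these animals in the values of r was not tested. Among the members, Jun was nearest to Fos (r = 0.76, rank 24 of all genes), followed by Junb (0.67), Fosb (0.55) and Ier2 (0.53). Atf3 and Fosl1 had r of -0.07 and 0.03.

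Other immediate early genes were also higher more often than lower. Of 39 such genes, 36 were tested, and 23 were higher and 0 lower, beside 15.3% of all genes higher and 23.2% lower. The median log2 fold change of the 36 was 1.03, against -0.10 for all genes. Those with the smallest p were Plk3 (1.65 ± 0.29, adjusted p = 0.00227) and Plk2 (1.42 ± 0.27, adjusted p = 0.00303), which encode stress-responsive polo-like kinases, and Egr2, the zinc finger relative of Egr1. Egr2 averaged 5.90 ± 1.45 log2 CPM in anomalies and 1.89 ± 1.13 in normal adipose tissue (SD, n = 7 and 4), a change of 4.01 ± 0.77 (adjusted p = 0.00309). The other 13 did not pass, among them Dusp1 (0.77, adjusted p = 0.0660), Klf2 (-0.04), Klf4 (-0.30) and Nr4a2 (-0.95, adjusted p = 0.158), named after their values were seen. With library totals 29 were higher, beside 35.3% of all genes, and without normal animal F539 20 were, beside 14.9%.

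**Figure D4:**
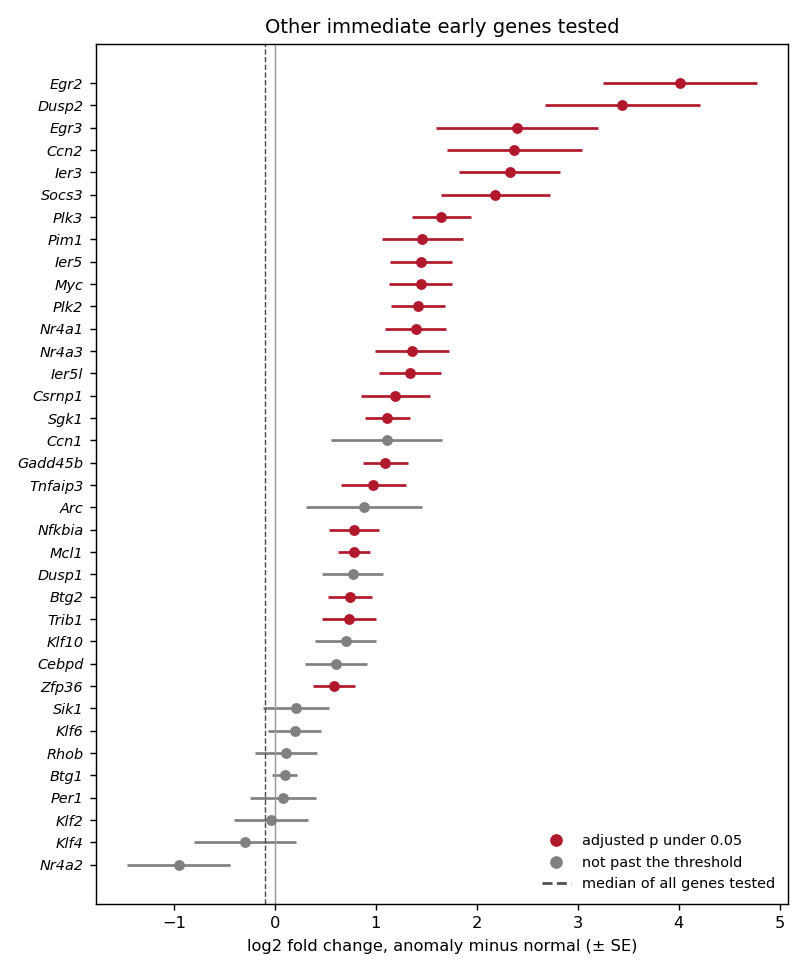
Log2 fold change, anomaly minus normal, with bars of 1 SE, for the 36 other immediate early genes tested. Red points, 23 in all, passed an adjusted p under 0.05 and lie above 0, and grey points did not pass. Egr2 is farthest to the right at 4.01 and Nr4a2 farthest to the left at -0.95.

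Other members of the AP-1 superfamily were called about as often as all genes. Of 16 further leucine zipper genes, 15 were tested, 4 were higher and 2 lower, with a median of 0.29, beside 15.3% of all genes higher and 23.2% lower. Batf (2.09 ± 0.35, adjusted p = 0.00190) and Batf2 (1.92 ± 0.50, adjusted p = 0.0117), whose small proteins pair with Jun in immune cells, and the small Maf gene Maff (1.02 ± 0.29, adjusted p = 0.0191) were among those higher. Atf2, a partner of Jun on cAMP response elements, was lower (-0.67 ± 0.12, adjusted p = 0.00232), as was Atf5 (-1.42 ± 0.46, adjusted p = 0.0322). With library totals, under which 35.3% of all genes were higher, the counts were 9 higher and 1 lower.

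Upstream of these genes stand the MAP kinases and the factors that bind their promoters, and members of this list were called in both directions. Of 25 genes, 23 were tested, 6 were higher and 3 lower, with a median of 0.03. The shares of all genes tested were 15.3% higher and 23.2% lower. Higher were Mrtfa (0.96 ± 0.17, adjusted p = 0.00236), a coactivator of serum response factor, the p38 kinase gene Mapk11 (1.81 ± 0.37, adjusted p = 0.00430) and the Ets factor gene Elk4 (0.52 ± 0.13, adjusted p = 0.0107). Lower were Map3k5 (-1.32 ± 0.21, adjusted p = 0.00158), a stress-activated kinase gene, the Jun kinase gene Mapk9 (-0.84 ± 0.18, adjusted p = 0.00528) and the Ets factor gene Elk1 (-0.67 ± 0.16, adjusted p = 0.00797). Srf, the serum response factor gene, named after its value was seen, was at 0.15 (adjusted p = 0.545). With library totals the counts were 14 higher and 2 lower, beside the same 35.3% of all genes.

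Of 22 genes known as targets of AP-1 in other settings, 19 were tested, with a median of 1.93. Of the 19, 10 were higher and 0 lower, beside 15.3% of all genes higher and 23.2% lower. The protease inhibitor gene Timp1 (4.42 ± 0.64, adjusted p = 0.00114), the hyaluronan receptor gene Cd44 (1.93 ± 0.28, adjusted p = 0.00115) and the cytokine gene Tnf (2.22 ± 0.42, adjusted p = 0.00287) had the smallest p. Many genes of this list are also made by macrophages or fibroblasts. Mmp9, a gelatinase gene of the list named after its value was seen, was at 0.69 (adjusted p = 0.568). With library totals 14 of the 19 tested were higher and 0 lower, beside 35.3% of all genes higher.

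With all animals and the deposited scaling, genes of stress programmes linked to Atf3 or to rapid induction were called about as often as all genes or less. Of all genes, 15.3% were higher and 23.2% lower. Of 13 integrated stress response genes tested, of 14, 3 were higher and 3 lower, with a median of -0.35. The counts were 2 higher and 7 lower without animals named with f or F (18f, F578 and F539). In that setting 2080 of all 12955 genes were higher and 3630 lower, a smaller share lower than in this list. With library totals the counts were 5 higher and 2 lower, beside 4573 higher and 1575 lower of all genes. Anomaly 18f stood above the other 6 anomalies in Asns, at 6.95 log2 CPM against 3.62 to 4.87, and in Psat1, at 7.46 against 4.27 to 5.23. The phosphatase subunit gene Ppp1r15a (0.80 ± 0.21, adjusted p = 0.0132) and the folate enzyme genes Shmt2 (0.79, adjusted p = 0.0176) and Mthfd2 (1.51, adjusted p = 0.0248) were higher. The lipoprotein receptor gene Vldlr (-2.84, adjusted p = 0.000995), the serine synthesis gene Phgdh (-3.25, adjusted p = 0.00811) and the asparagine synthetase gene Asns (-1.58, adjusted p = 0.0407) were lower. Of 13 heat shock genes, all tested, Hspa1a was higher (1.75 ± 0.50, adjusted p = 0.0174), the mitochondrial chaperonin gene Hspd1 was lower (-1.28 ± 0.34, adjusted p = 0.0138) and the median was 0.15. Immediate early genes are also known to be induced while tissue is dissected. The interval before freezing is not given in the sources used here, and its part in these values was not tested.

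Genes on several lists of cell type markers were called higher or lower alongside these genes. Of all 12955 genes tested, 15.3% were higher and 23.2% lower. The share higher was 14.9% without F539 and 16.1% without animals named with f or F. All 13 adipocyte markers were lower in anomalies (median log2 fold change -4.56), led by the glucose transporter gene Slc2a4 (-3.72 ± 0.38, adjusted p = 0.000569). Of 11 cell cycle genes tested, 11 were higher, and their summed level was 195 to 700 CPM in anomalies and 61.7 to 87.9 CPM in normal adipose tissue. Higher were 5 of 12 endothelial markers (1855 to 6104 CPM in anomalies, 1544 to 2872 CPM in normal adipose tissue), or 2 of 12 without F539, 5 of 12 macrophage markers, or 3 of 12 without animals named with f or F (965 to 6856 CPM, 881 to 1689 CPM) and 5 of 9 T and NK cell markers (56.7 to 179 CPM, 11.8 to 52.3 CPM). Fibroblast markers gave 2 higher and 1 lower of 10 (3104 to 19461 CPM, 2299 to 5992 CPM), pericyte and smooth muscle markers 2 higher of 9 (598 to 7903 CPM, 1368 to 2193 CPM), B and plasma cell markers 2 of 8, or 6 of 8 without animals named with f or F and 1 of 8 without F539 (14.0 to 856 CPM, 13.0 to 135 CPM) and neutrophil markers 1 of the 3 tested (23.6 to 1152 CPM, 7.42 to 69.3 CPM), in each pair with anomalies first. No marker of skeletal muscle, skin or mast cells passed, and skin markers summed to 9.07 to 10537 CPM in anomalies and 13.1 to 1490 CPM in normal adipose tissue. With library totals, 9 endothelial, 8 macrophage, 7 T and NK cell and 4 B and plasma cell markers were higher and 0 lower. In that setting 12 adipocyte markers were lower, fibroblast markers gave 3 higher and 1 lower, and 35.3% of all genes were higher. The counts of the other lists here were the same. Without animals named with f or F, 1 macrophage marker was lower. No marker on these lists was at 0 reads throughout either group. The part of cell composition in the changes of the 10 genes was not tested.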

How the data were processed

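The authors deposited 1 table of normalized log2 CPM values with a small prior for 32774 Ensembl genes in 12 libraries. The submitters' processing notes name STAR, limma, mm10 and GRCm38, without versions. The labels' protocols give poly-A libraries from an unstranded kit. After subtraction of the floor (-6.97 log2 CPM), each library's linear values were whole multiples of 1 step (100% within 0.1). These give the recovered reads, whose totals are the depth, and a composition factor of 0.795 to 1.41 per library. Depth speaks of counting error only.

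Animals were taken from the titles, which give 7 anomaly animals where the design text gives 8. Genes averaging 1 log2 CPM or more across the 11 animals were tested with limma 3.58.1 (statmod 1.5.0, R 4.3.3), with a mean trend, robust variances, two-sided p and Benjamini-Hochberg adjustment over all 12955 genes at 0.05. Every adjusted p of a gene comes from limma, and from this fit unless another grouping, scaling, term or set of animals is named beside it. A fold change is anomaly minus normal on the log2 scale, prior included. The recovered reads entered limma-voom and the scalings to library totals and median ratios, as alternatives, and no count model was fitted. Symbols and lengths came from GENCODE vM21. The members and the 18 gene lists were chosen with earlier results of these data known. All members are named, and from each list up to 3 genes in each direction with the smallest p. Scripts were tested on simulated data.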

Additional observations from a re-analysis of the deposited data

Results flagged for a closer look

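Within each group of animals, 4 values of the 10 genes stood apart from the rest of their group by Dixon's test, out of 20 groups tested, where chance gives about 1 in 20. Among the anomalies, Fosb stood at 6.43 log2 CPM in F578, above the other 6 animals. Egr1 stood at 5.67 log2 CPM in anomaly animal 18f, below the other 6. Among the normal animals, Fosl1 stood at 2.51 log2 CPM in M5, above the other 3, and Egr1 at 4.57 log2 CPM in M2, below the other 3.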

How the results depend on the processing

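Of 28 alternatives, 4 were added after the data were seen. The count of members lower was 0 in each, and no fold change was reversed. With fat-titled anomalies only, 2 members (Junb and Atf3) and 1512 of all genes passed, against 9 and 4986 with all animals, and 56.3% of the genes called were higher. Leaving out 1 animal gave 5 to 9 members and 3042 to 5815 genes, both lowest without M602. Calls also lost were Fosl1 (adjusted p = 0.0639) and Fosl2 (0.0527) without M580 and F539, and Fosl1 (0.0713) without animals named with f or F. Fosb was called with subQ-titled anomalies only (0.0369) and without animals named with f or F (0.0468). On the recovered reads, limma-voom called 2062 genes higher and 2950 lower, with 9 members higher. The cause of these changes was not tested. Planned fits with count models were not run. The recovered reads entered limma-voom and, rescaled and turned to log2 values, the limma fits with library totals and with median-ratio scaling. The fit with the animal as a random effect was not run either, since limma gave no correlation with 1 animal in 2 pieces. No paired analysis was possible because the titles give the groups no shared replicate numbers. Depth limits the low genes of M580, where 1 read is worth 0.742 CPM.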

Other observations

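Xist, the noncoding RNA of the inactive X chromosome, and the Y-linked gene Ddx3y were read in each library because Xist was among the genes closest to Fos. Xist was at 9.23 log2 CPM in anomaly 18f and 9.71 in anomaly F578, and at 9.38 in normal animal F539, with Ddx3y at -1.41, -2.96 and -6.97 in the same libraries. The arm piece of M566 held both, with Xist at 5.97 and Ddx3y at 4.92, while its leg piece had 3.30 and 5.35. In the other libraries Xist was at or under 1.33 and Ddx3y at 4.56 or higher. The names of 18f, F578 and F539 are also those with the letter f or F, whose meaning the labels do not state. With that letter as a term beside the group, Fos was higher in animals named with f or F by 1.82 ± 0.41, with an adjusted p of 0.805, and 5 of 12955 genes passed for the letter. In that fit the change of Fos between anomaly and normal was 2.29 (adjusted p = 0.00240). Without these 3 animals it was 2.54 (adjusted p = 0.00180). This comparison was chosen after the data were seen.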
